A study of Mus musculus with 4 samples.

Results

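The genes described here encode splicing factors and proteins of the small nuclear ribonucleoproteins (snRNPs), the RNA and protein particles that assemble into the spliceosome. The rule that chose them reads the gene symbol alone, but it was set with earlier results of these data known. It takes the SR protein genes (Srsf), the hnRNP genes, the subunits of SF3A and SF3B, and the Snrp and Prpf genes. U2af, Lsm1 to Lsm8, and Rbm5, Rbm17, Rbm25 and Rbm39 are taken as well. The rule found 80 of the 24391 genes in the count table, and 78 of these had enough counts to be tested, out of 12266 genes tested in all. RNA-Seq was analyzed in 4 libraries of Beko cells, a mouse progenitor T-cell leukemia line with constitutively active Notch signaling. In 2 libraries (GSI) the cells had been kept for 48 h in the γ-secretase inhibitor DAPT, which prevents release of the Notch intracellular domain. In the other 2 (washout) the cells had been kept in DAPT for the same 48 h, washed and cultured for a further 24 h without it. The labels give the dose as 10 mg/ml, whereas the methods of the study give the same figure in μg/ml. All 4 libraries therefore come from cells that had been exposed to DAPT, and no library of cells never exposed to it was analyzed. Washing and the longer culture went together with the removal of the inhibitor, so these cannot be told apart from the return of Notch signaling.

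Splicing removes introns from the primary transcript in a series of steps. U1 snRNP marks the 5′ splice site and U2 snRNP the branch point, helped by U2AF at the 3′ splice site, before the U4/U6.U5 tri-snRNP joins and the catalytic spliceosome forms. SR proteins and hnRNPs bind the transcript and decide, often with opposite effects, which sites are used, and several of them limit their own mRNA by including exons that mark it for decay. Proliferating cells need large amounts of these proteins, and in T cells hnRNP and SR proteins set the isoforms of receptors such as CD45. The values given here are counts per gene, so they do not show which isoforms were made.

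The libraries held between 13716199 and 36364200 counts on genes, replicate 1 being the deeper in each condition, and 3 counts corresponded to 0.0881 to 0.223 CPM (counts per 1000000 of the library size, scaled by TMM). Intervals set by these counts would cover counting error only. Of 15 T-cell progenitor markers, all 15 had more than 3 counts in every library, and their summed level was 7775 to 8205 CPM. B-cell markers exceeded 3 counts in every library in 0 of 6 cases, with Ms4a1, Ebf1 and Pax5 at 0. Of the erythroid markers 1 of 4 did so, with both globin genes at 0. Among myeloid markers 1 of 6 did so, Lyz2 was at 0, and the summed level was 38.2 to 49.1 CPM in GSI and 4.98 to 5.49 CPM upon washout. Among stromal markers 2 of 4 did so, Col3a1 was at 0, and the summed level was 45.1 to 47.6 CPM in GSI and 27.9 to 36.5 CPM upon washout. The part of these low signals in the results was not tested.

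Upon washout, most splicing factor genes were upregulated. With edgeR's quasi-likelihood test, 63 of the 78 genes tested rose and 1 fell at an adjusted p-value under 0.05, whereas 27.0% of all genes tested rose and 25.4% fell. Past both thresholds of the study, which add a log2 fold change above 1 or below -1, 22 were higher and 0 lower, against 7.74% and 11.7% of all genes tested. The median log2 fold change of the splicing factor genes was 0.85, compared with -0.01 over all genes tested and 0.10 over the 8710 genes with a level at least as high as that of the lowest of them. Of those 8710 genes 34.5% rose and 23.4% fell at the adjusted p alone, and 750 were higher and 559 lower past both thresholds. Both washout libraries lay above both GSI libraries for 69 of the 78 genes (38.2% of all genes tested) and below them for 2 (39.1%). The share of all counts taken by these genes went from 1.545% and 1.503% in GSI to 2.39% and 2.08% upon washout. In these bulk libraries a change in the number of cells of a kind cannot be told apart from a change in RNA per cell. The count past both thresholds depended on the processing: it was 10 higher and 1 lower with scaling to the total count alone. That scaling shifted all genes by -0.20. Among all genes called past both thresholds in either direction, it took the share called higher from 39.8% to 23.0%. The number of splicing factor genes higher was 14 once GC content and exon length were corrected for. It was 6 when a log2 fold change beyond 1 was itself tested with glmTreat.

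**Figure D1:**
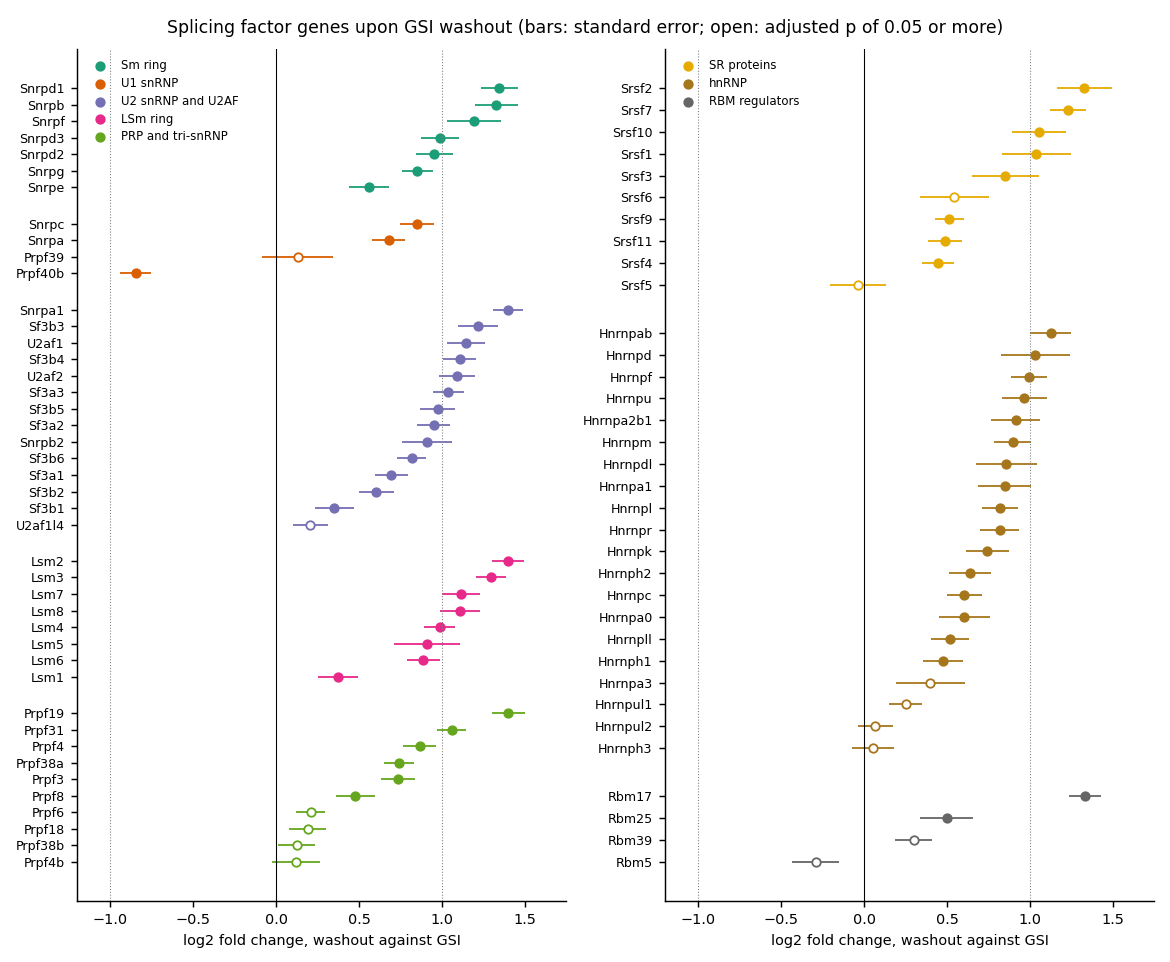
Log2 fold change of 77 of the splicing factor genes tested, washout against GSI, grouped by role (colour); bars are standard errors from edgeR, open points have an adjusted p of 0.05 or more, and dotted lines mark -1 and 1. Values run from -0.85 (Prpf40b) to 1.40 (Prpf19), and all but 3 of the points lie above 0.

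**Figure D2:**
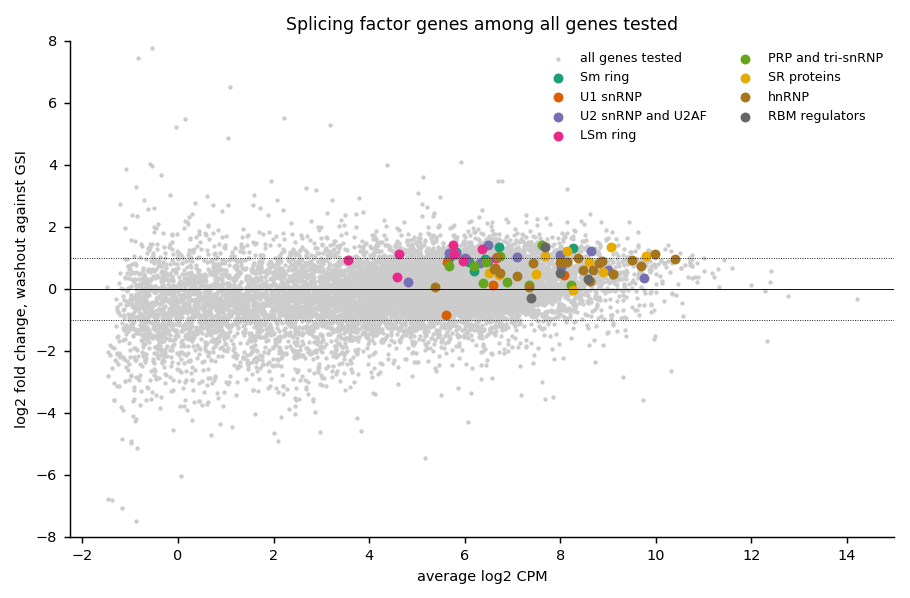
Log2 fold change against average log2 CPM for all 12266 genes tested (grey) and the 78 splicing factor genes (coloured by role). The splicing factor genes lie mostly among the highly expressed genes, 55 of 78 in the top 25% of level, and mostly above 0.

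The Sm proteins form the heptameric ring around the snRNAs of U1, U2, U4 and U5. All 7 Sm genes tested rose, 3 of them past both thresholds, with a median log2 fold change of 0.99. Snrpd1, the gene of SmD1, had 60.3 and 58.9 CPM in GSI, against 163.9 and 138.6 upon washout. Both washout libraries were above both GSI libraries, and the log2 fold change was 1.34 (SE 0.11, adjusted p = 0.00045). Snrpb, which encodes SmB and lies on chromosome 2 from 129997150 to 130005139 (mm9, minus strand), had 159.0 and 191.5 CPM in GSI, against 415.7 and 463.1 upon washout, a log2 fold change of 1.33 (SE 0.13, adjusted p = 0.00065). It also had the highest level per length of the class, 155.5 CPM per kb of exon on average over the 4 libraries. Snrpf had the widest relative spread of the class between its GSI libraries, at 29.8 and 39.2 CPM, and reached 71.4 and 85.8 CPM upon washout (log2 fold change 1.19, SE 0.16). With GC content and length corrected for, the log2 fold changes of Snrpd1 and Snrpf were 0.87 and 0.75. Snrpd3 ended just below the threshold at 0.99, Snrpd2 was at 0.95 and Snrpg at 0.85. Snrpe rose least, from 59.5 and 59.7 to 96.6 and 78.5 CPM (log2 fold change 0.56, SE 0.12, adjusted p = 0.010), and its adjusted p was 0.052 without GSI replicate 1. Snrpn, the imprinted paralog of Snrpb that is mainly used in neurons, was left with 2 and 0 counts in GSI, against 0 and 1 after washout, and was not tested.

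LSm proteins build related rings. Lsm2 to Lsm8 form the nuclear ring on U6 snRNA, whereas the ring with Lsm1 in place of Lsm8 acts in the cytoplasm on mRNAs that are to be degraded. All 8 genes rose, 4 of them past both thresholds, with a median of 1.05. Lsm2, on chromosome 17 from 35118807 to 35122836 (mm9, plus strand), had 30.2 and 29.1 CPM in GSI, against 77.3 and 79.2 upon washout. The replicates lay close together in both conditions, and the log2 fold change was 1.40 (SE 0.09, adjusted p = 0.00033). Lsm3 had the highest level per length of the class (130.7 CPM per kb) and rose from 48.7 and 46.8 to 119.3 and 115.1 CPM. Its log2 fold change was 1.29 (SE 0.09), and 0.80 with GC content and length corrected for. Lsm7 rose from 15.03 and 15.96 to 33.5 and 33.3 CPM. The subunits particular to each ring had different values. Lsm8, of the nuclear ring, went from 32.2 and 37.0 to 79.0 and 69.2 CPM (log2 fold change 1.11, SE 0.12), whereas Lsm1, of the cytoplasmic ring, went from 21.7 and 19.9 to 26.1 and 27.9 CPM (log2 fold change 0.37, SE 0.12, adjusted p = 0.040). The difference between these genes was not itself tested, and the call of Lsm1 was lost with DESeq2 (adjusted p = 0.091), among other alternatives. Lsm5 had the lowest CPM of the splicing factor genes tested, a scale not corrected for length. It was at 7.22 and 9.04 CPM in GSI, against 16.7 and 13.4 upon washout. Its log2 fold change fell from 0.91 to 0.40 with GC content and length corrected for. With that correction the class median became 0.79 over the 7 genes that have these features, with Lsm8 left out.

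**Figure D3:**
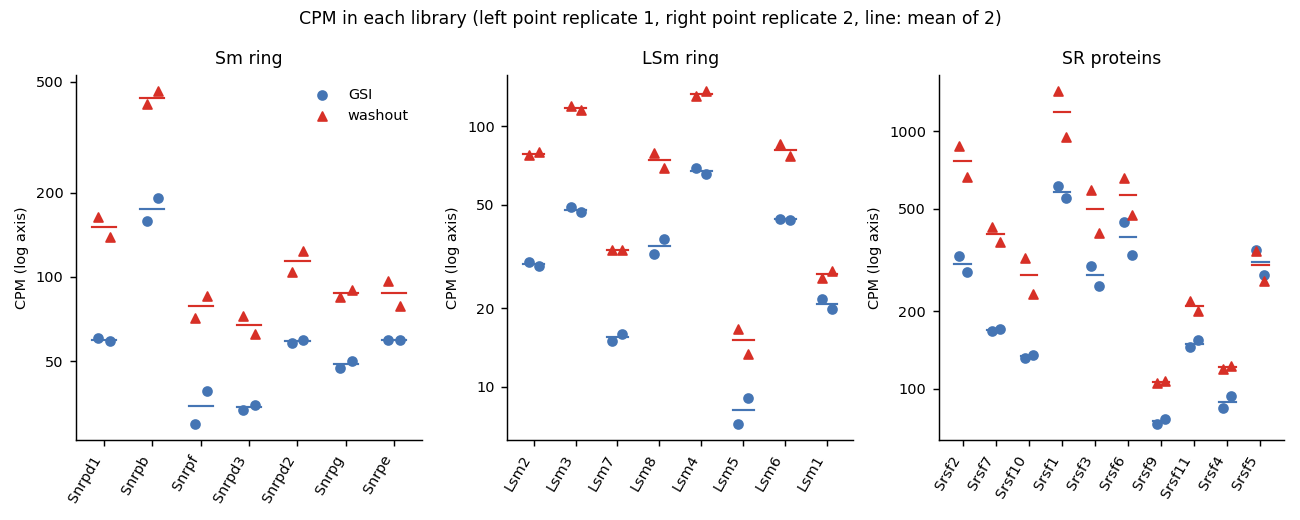
CPM on a log axis in each library for the Sm ring, LSm ring and SR protein genes tested, ordered by log2 fold change; circles are GSI, triangles washout, left and right points replicates 1 and 2, and lines the mean of the 2. Washout lies above GSI for every Sm and LSm gene shown, whereas the SR genes spread from Srsf2 to Srsf5, whose points overlap.

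Proteins of U2 snRNP and U2AF, which recognize the branch point and the 3′ splice site, rose in 13 of 14 cases, 6 of them past both thresholds, with a median of 0.96. Snrpa1, which encodes a protein that binds U2 snRNA and lies on chromosome 7 from 73205185 to 73219468 (mm9, plus strand), had 50.3 and 48.8 CPM in GSI, against 134.0 and 127.0 upon washout. Its log2 fold change was 1.40 (SE 0.09, adjusted p = 0.00033). Within SF3B, the complex that holds the branch point, the subunits had different log2 fold changes, and the differences between them were not tested. Sf3b3, a scaffold subunit, rose from 222.9 and 260.2 to 555.3 and 566.6 CPM (1.22, SE 0.12), Sf3b4 reached 1.11, Sf3b5 0.97 and Sf3b6 0.82. Sf3b2, with the highest level per length of the class (159.1 CPM per kb), had a log2 fold change of 0.60. Sf3b1, which contacts the branch point and is often mutated in leukemia, had the lowest log2 fold change of SF3B, with 730.0 and 788.1 CPM in GSI, against 962.1 and 972.4 upon washout (0.35, SE 0.12, adjusted p = 0.044). Its libraries did not overlap, but the call was lost without any 1 of the 4 libraries, with an adjusted p of up to 0.281. In SF3A, Sf3a3 was at 1.04, Sf3a2 at 0.95 and Sf3a1 at 0.69. Both subunits of U2AF rose, U2af1 (which reads the AG of the 3′ splice site) from 32.9 and 30.4 to 74.9 and 64.9 CPM and U2af2 (which binds the polypyrimidine tract) from 151.9 and 172.9 to 342.6 and 349.3 CPM, with log2 fold changes of 1.14 and 1.09. Their paralog U2af1l4 had 26.2 and 26.0 CPM in GSI, against 29.5 and 30.9 upon washout and did not pass the test (log2 fold change 0.21, adjusted p = 0.155).

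Of 5 genes of U1 snRNP and its associated factors, 3 were higher, 1 was lower and 0 were past both thresholds. Over all genes tested 27.0% were higher, 25.4% lower and 7.74% higher past both thresholds. With 5 genes, the numbers lower and past both thresholds cannot be set apart from these shares. Snrpc, which helps U1 to engage the 5′ splice site, rose from 35.9 and 34.2 to 66.2 and 60.02 CPM (log2 fold change 0.85, SE 0.10), and Snrpa, which binds a stem-loop of U1 snRNA and is the member with the highest level per length (56.3 CPM per kb), from 73.3 and 79.2 to 117.0 and 126.9 CPM (0.68, SE 0.10). Prpf40b, a factor that links U1 to the branch point and lies on chromosome 15 from 99125518 to 99147449 (mm9, plus strand), was the only splicing factor gene called lower, from 61.8 and 63.8 to 34.3 and 35.6 CPM. All 4 values of Prpf40b were close to their group mean, and the log2 fold change was -0.85 (SE 0.09, adjusted p = 0.00094). It was -0.53 after the correction for GC content and length, and -1.05 with the total count alone. Prpf39 had 102.8 and 82.4 CPM in GSI, against 122.6 and 79.5 upon washout, so that the conditions overlapped (log2 fold change 0.13, adjusted p = 0.639).

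The other Prpf genes encode proteins of the U4/U6.U5 tri-snRNP and of later steps, and 6 of 10 rose, 2 of them past both thresholds (median 0.61). Prpf19, the ubiquitin ligase at the center of the Prp19 complex, lies on chromosome 19 from 10969733 to 10980019 (mm9, plus strand). It had 109.6 and 105.4 CPM in GSI, against 298.4 and 269.1 upon washout, and its log2 fold change was 1.40 (SE 0.10, adjusted p = 0.00035). Lsm2 and Snrpa1 lay within its standard error, and without each library in turn another gene had the largest value (Srsf2, Snrpb or Lsm2). It was also the class member with the highest level per length (89.9 CPM per kb). Prpf31, Prpf4 and Prpf3, all proteins of U4/U6 snRNP, had log2 fold changes of 1.06, 0.86 and 0.74. Prpf8, the U5 protein that forms the catalytic core, rose from 434.8 and 490.5 to 625.8 and 660.3 CPM (0.48, SE 0.12, adjusted p = 0.016). The call of Prpf8 was lost without GSI replicate 1 (adjusted p = 0.146). Prpf6, Prpf18, Prpf38b and Prpf4b did not pass the test, with log2 fold changes of 0.21, 0.19, 0.12 and 0.12. Of these, Prpf38b and Prpf4b (a kinase of the spliceosome, 292.6 and 279.3 CPM in GSI, 351.1 and 270.1 CPM upon washout) overlapped between conditions.

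SR proteins are activators that bind exonic enhancers and recruit U1 and U2AF. Of 10 SR genes tested, 8 rose, 4 of them past both thresholds, with a median of 0.70. Srsf2, known as SC35, had 328.3 and 283.6 CPM in GSI, against 872.3 and 664.0 upon washout, and the highest level per length of the class (181.4 CPM per kb). It lies on chromosome 11 from 116711215 to 116714408 (mm9, minus strand) and overlaps exons of Mfsd11 on the other strand, so its counts are uncertain to that extent. The log2 fold change was 1.33 (SE 0.17, adjusted p = 0.0013). Srsf7 rose from 167.8 and 171.0 to 423.9 and 370.2 CPM (1.23, SE 0.11). Srsf10, which represses splicing when dephosphorylated, rose from 132.0 and 135.1 to 321.9 and 232.7 CPM (1.06, SE 0.16). Srsf1, also called SF2 or ASF, had 609.6 and 549.1 CPM in GSI, against 1430 and 949.9 upon washout (1.04, SE 0.21, adjusted p = 0.0074). The washout libraries of Srsf1 differed by more than 1.5-fold, and without washout replicate 1 its log2 fold change was 0.72. Srsf6 had 443.0 and 331.5 CPM in GSI, against 658.1 and 471.1 upon washout. The conditions of Srsf6 did not overlap, but the spread within each was wide, and its log2 fold change was 0.54 (SE 0.21) with an adjusted p of 0.067 in edgeR and 0.0096 in DESeq2. Leaving out 1 library at a time gave log2 fold changes of 0.29 to 0.78 for Srsf6, with an adjusted p of 0.049 without GSI replicate 1 and 0.0044 without washout replicate 2. Srsf5 was at 344.8 and 276.0 CPM in GSI, against 341.5 and 262.9 upon washout (log2 fold change -0.04, SE 0.17), with replicate 1 above replicate 2 in both conditions. With GC content and length corrected for and the replicate number added to the edgeR fit, Srsf5 was called lower (-0.29, adjusted p = 0.00047). Srsf12 had 1 count in all 4 libraries together and was not tested.

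The hnRNP genes, whose proteins coat the transcript and often repress splice sites, took the most counts of any class, with 20 genes at a summed level of 6050 and 6010 CPM in GSI, against 11154 and 9680 upon washout. Of these 20, 16 rose and 0 fell, against 27.0% and 25.4% of all genes tested (median 0.78). Past both thresholds 2 were higher (10%), against 7.74% of all genes tested, and this number cannot be set apart from that share. Hnrnpab rose from 627.7 and 635.1 to 1454 and 1299 CPM (log2 fold change 1.12, SE 0.12, adjusted p = 0.00092) and had the highest level per length of all splicing factor genes with a length (334.2 CPM per kb). Hnrnpd, the AU-rich element binding protein AUF1, had 67.2 and 66.8 CPM in GSI, against 167.1 and 105.9 upon washout. Its log2 fold change of 1.03 (SE 0.21) was 0.67 without washout replicate 1, the library that stood higher. Hnrnpf (0.99) and Hnrnpu (0.97) lay just below the threshold, Hnrnpa2b1 was at 0.91 and Hnrnpa1 at 0.85. Hnrnpll, which represses the variable exons of CD45 in activated T cells, rose from 84.1 and 92.8 to 135.9 and 116.9 CPM (0.52, SE 0.11, adjusted p = 0.010). Its adjusted p was 0.072 without GSI replicate 1. Hnrnpa3, Hnrnpul1, Hnrnpul2 and Hnrnph3 did not pass the test, with log2 fold changes of 0.40, 0.25, 0.07 and 0.05. Without washout replicate 2 Hnrnpa3 had a log2 fold change of 0.70 (adjusted p = 0.0014), and without washout replicate 1 it had 0.034. It passed without the filter on low counts as well (adjusted p = 0.0014), and Hnrnpul1 passed with GC content and length corrected for (0.31, adjusted p = 0.014). Hnrnpa3 has 20 near-identical copies of its coding sequence elsewhere in the genome, and the share of its counts that this touches was not tested. Hnrnph3 had 42.0 and 40.1 CPM in GSI, against 46.6 and 38.2 upon washout, and these overlapped, whereas its paralogs Hnrnph1 and Hnrnph2 rose by 0.47 and 0.64.

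The 4 RBM genes are regulators that act with U2AF at the 3′ splice site or modulate exon choice. Of these 4, 2 rose and 1 passed both thresholds, against 27.0% and 7.74% of all genes tested. With 4 genes, these numbers cannot be set apart from those shares. Rbm17, also called SPF45, lies on chromosome 2 from 11507066 to 11525780 (mm9, minus strand) and had 118.2 and 114.2 CPM in GSI, against 299.2 and 286.0 upon washout. Its log2 fold change was 1.33 (SE 0.09, adjusted p = 0.00034), and its level per length was the highest of the 4 (86.5 CPM per kb). Rbm25 rose by 0.50 on the log2 scale (SE 0.16, adjusted p = 0.041), from 229.7 and 192.7 to 337.8 and 258.0 CPM, and its call was lost without any of 3 libraries (GSI replicates 1 and 2, washout replicate 1). Rbm39 had 353.6 and 336.2 CPM in GSI, against 451.2 and 396.8 upon washout (0.30, SE 0.11, adjusted p = 0.066), and its adjusted p was 0.046 with DESeq2 and 0.029 without washout replicate 2. Rbm5, known for its effect on Fas splicing, was lower in both washout libraries (134.8 and 164.4 CPM) than in both GSI libraries (166.5 and 199.8 CPM). At a log2 fold change of -0.29 (SE 0.14) its adjusted p was 0.128, so that it was not called. It did pass the test with GC content and length corrected for (log2 fold change -0.44, adjusted p = 0.038), with the total count alone (-0.49, adjusted p = 0.024) and without washout replicate 2 (-0.42, adjusted p = 0.036), and leaving out 1 library at a time gave -0.42 to -0.14.

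Around the log2 threshold of 1, the nearest genes below were Hnrnpf and Snrpd3, both at 0.99, and the nearest above were Hnrnpd at 1.03 and Sf3a3 at 1.04. Each of these 4 lay closer to the threshold than its standard error. Across the 15 settings that gave a value for single genes, 49 splicing factor genes were higher at an adjusted p under 0.05 in every setting in which they were measured, and 69 had a log2 fold change above 0 in every such setting. Lsm2, Prpf19, Rbm17, Sf3b3, Snrpa1, Snrpb and Srsf2 stayed past both thresholds in all 15. Scaling to the total count alone ended the calls of 9 genes, among them Hnrnpa0, Hnrnph1, Hnrnpll, Lsm1, Prpf8, Rbm25, Sf3b1 and Srsf4, and the correction for GC content and length those of 5, Hnrnpll, Lsm1, Lsm5, Rbm25 and Sf3b1. None of the genes called with all 4 libraries in the chosen fit changed sign in any of them.

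Replicates also differed from each other in a pattern. Upon washout, 55 of the 78 genes were higher in replicate 1 than in replicate 2, and in GSI 40 were, with 34 higher in replicate 1 in both conditions. The median log2 ratio of replicate 1 to 2 was 0.14 upon washout and 0.0043 in GSI. The washout replicates differed by more than 1.5-fold in 4 genes, Hnrnpd, Hnrnpa3, Prpf39 and Srsf1, and the GSI replicates in 0. Other genes were lower in replicate 1 in both conditions, among them Snrpf, Rbm5, Snrpb and Prpf8. Without washout replicate 1 the median log2 fold change of the 78 genes was 0.72, and without each of the other 3 libraries in turn it reached at most 0.89.

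**Figure D4:**
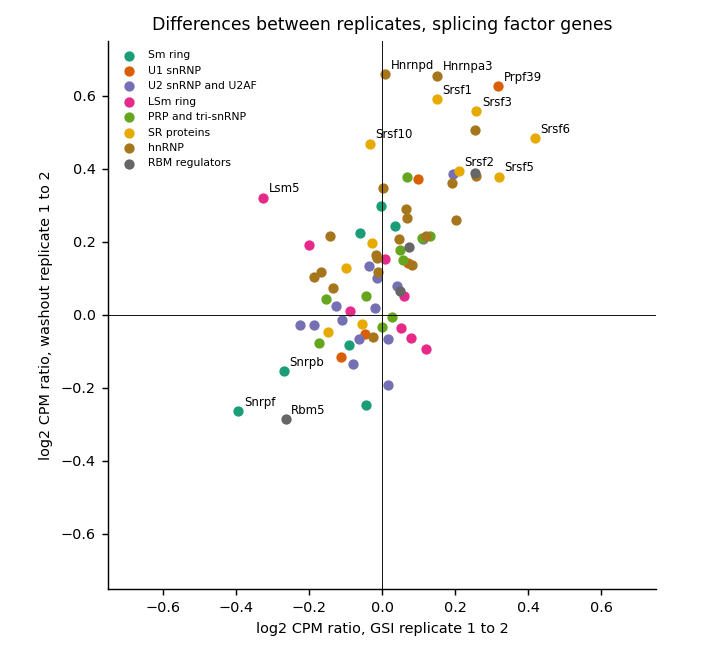
Log2 ratio of CPM in replicate 1 to replicate 2 for each of the 78 splicing factor genes, GSI on the x axis and washout on the y axis, coloured by role. More points lie above 0 on the washout axis (55 of 78) than on the GSI axis (40 of 78), and names are given for some of the genes with large ratios.

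Levels, lengths and positions of the genes were compared as a description. Mean levels ran from 8.13 to 912.7 CPM in GSI and from 15.05 to 1782 CPM upon washout, and the median gene stood at percentile 85.8 of all genes tested by average log2 CPM. Across the 77 tested genes with mm9 features, log2 fold change ran against exon length (Spearman rho -0.43, Pearson r -0.38 with log2 length) and showed little relation to GC content (rho 0.15) or to level (rho -0.03). These genes share their libraries, and no p-value is attached. The median exon length was 2375 bases for the genes past both thresholds, 4195 bases for those that did not pass the test and 3537 bases for all genes tested that have these features. An intron longer than 3000 bases, the largest that the authors' alignment allowed, is annotated in 43 of the 79 genes with features, and its part in the counts was not tested. Exons of 15 of these genes overlap a gene on the other strand and those of 4 a gene on the same strand. Besides Srsf2, the former include Snrpf, Sf3b3, Sf3b4, Prpf31, Srsf1, Hnrnpab and Hnrnpd. The latter are U2af1l4, Hnrnpu, Hnrnpm and Hnrnpa3. The counts of all these genes are uncertain to that extent. At least 1 near-identical copy elsewhere in the genome was found for 22 genes.

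The promoters were searched for the E-box CACGTG, which Myc family factors bind, for TGGGAA, the RBPJ motif of the study, and for TCGCGAGA, a motif common in housekeeping promoters, on both strands. RefSeq promoters (250 bases before to 50 after the start, GRCm38.p6) were given for 69 of the 80 genes, 93 promoters in all. CACGTG was in 11.8% of them, compared with 9.93% of the promoters of all genes tested and 7.15% of all promoters. TGGGAA was in 19.4%, compared with 22.9% and 25.6%, and TCGCGAGA in 6.45%, compared with 2.26% and 0.995%. For TCGCGAGA these were 6 promoters of 5 genes, and overlapping promoters of Srsf4 among them hold the same match. The difference in shares was not tested. Among the 22 promoters given for 18 of the genes past both thresholds, CACGTG was in 1, that of Hnrnpd. TGGGAA was in 7 (31.8%) and TCGCGAGA in 1 (4.55%). The 7 include overlapping promoters of U2af1 that hold the same match. Counted by gene, TGGGAA was in 6 of the 18 (33.3%), compared with 26.2% of the genes tested that have a promoter. With 18 genes, this number cannot be set apart from that share. Stretches of 60 bases around the E-box are shown for a gene past both thresholds (Hnrnpd), a gene just below them (Hnrnpf), the U1 genes that rose and fell (Snrpa and Prpf40b) and a gene that did not pass the test (Prpf39), so that genes with different values upon washout are seen side by side. Each is written 5′ to 3′ on the strand of the gene and lies before the start, and capitals mark CACGTG.
Hnrnpd, chr5:99978939-99978998, minus strand: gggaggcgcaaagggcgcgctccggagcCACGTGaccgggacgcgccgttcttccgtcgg
Hnrnpf, chr6:117907698-117907757, plus strand: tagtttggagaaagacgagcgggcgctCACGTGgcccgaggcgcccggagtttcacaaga
Snrpa, chr7:27195797-27195856, minus strand: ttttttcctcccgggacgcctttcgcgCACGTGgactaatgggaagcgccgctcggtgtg
Prpf40b, chr15:99295023-99295082, plus strand: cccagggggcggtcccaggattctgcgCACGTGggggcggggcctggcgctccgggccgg
Prpf39, chr12:65036264-65036323, plus strand: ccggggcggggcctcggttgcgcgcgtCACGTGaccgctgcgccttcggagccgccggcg
In these stretches CACGTG begins at -32 from the start in Hnrnpd, -79 in Hnrnpf, -69 in Snrpa, -191 in Prpf40b and -43 in Prpf39. Some of these genes have other promoters as well. Another promoter of Snrpa holds CACGTG at -73 and -32, whereas the other promoters given for Hnrnpf and Prpf40b do not hold it. In Snrpa the stretch also holds tgggaa, starting at -57. A match says only that these letters are present, and no binding was measured here.

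For the rest of the splicing machinery, 119 further genes were read from the same fit in 6 lists. Of these, 73 rose (61.3%) and 8 fell (6.72%), 16 rose past both thresholds (13.4%), and the median log2 fold change was 0.44. Over all genes tested 27.0% rose, 25.4% fell and 7.74% rose past both thresholds. Genes that assemble snRNPs came closest to the genes above: 13 of 16 rose, 5 of them past both thresholds, with a median of 0.88. Wdr77, the partner of the arginine methylase Prmt5 that prepares Sm proteins for ring assembly, rose from 52.5 and 62.4 to 170.8 and 161.2 CPM (log2 fold change 1.53, SE 0.12), and Gemin4 of the SMN complex had a log2 fold change of 1.37. The lowest of this list was Snupn, the import adaptor of snRNPs, at -0.08 (adjusted p = 0.603). Of 22 other snRNP proteins 15 rose (median 0.44), from Nhp2l1, a protein of U4 snRNP, at 1.52 (SE 0.09, from 98.9 and 99.4 to 291.1 and 278.8 CPM) down to Zrsr1, a U2AF-related gene, at -0.41 (adjusted p = 0.051). Of 24 genes of the Prp19 complex and the catalytic steps 19 rose and 0 fell, but 1 passed both thresholds, Ppil1 (37.0 and 46.5 CPM in GSI, 90.3 and 101.5 CPM upon washout), and Cwc25 was lowest at -0.19 (adjusted p = 0.131).

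Directions among the kinases that phosphorylate SR proteins were divided. Of 8 kinase genes 1 rose (12.5%) and 4 fell (50%), with a median of -0.31, against 27.0% and 25.4% of all genes tested. The shares of the kinases rest on few genes, and their difference from all genes was not tested. Srpk1 rose from 150.7 and 162.6 to 212.8 and 227.1 CPM (log2 fold change 0.49, SE 0.10, adjusted p = 0.0076). Clk1 fell from 102.7 and 113.6 to 74.8 and 74.7 CPM (-0.53, SE 0.10, adjusted p = 0.0050), and Clk3, Srpk2 and Clk2 fell by 0.48, 0.48 and 0.39 on the log2 scale. Their libraries did not overlap between conditions. Among 34 SR-related and other regulators 18 rose and 2 fell (median 0.43), with Mbnl3 highest at 1.34 (53.9 and 49.5 CPM in GSI, 162.7 and 98.0 CPM upon washout) and its paralog Mbnl2 lowest at -0.84 (95.6 and 94.4 CPM in GSI, 54.7 and 51.2 CPM upon washout). Ptbp1, a repressor of exon inclusion, had a log2 fold change of 1.15. Of 15 genes of the exon junction complex and nonsense-mediated decay 7 rose (46.7%) and 2 fell (13.3%), with a median of 0.29. The paralogs Magohb and Magoh, core subunits of the exon junction complex, had log2 fold changes of 1.17 and 1.15. Smg1, the kinase that starts nonsense-mediated decay, fell from 443.0 and 567.4 to 350.8 and 369.9 CPM (-0.49, SE 0.14, adjusted p = 0.030), as did Smg6, an endonuclease of the pathway, at -0.33 (adjusted p = 0.025).

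**Figure D5:**
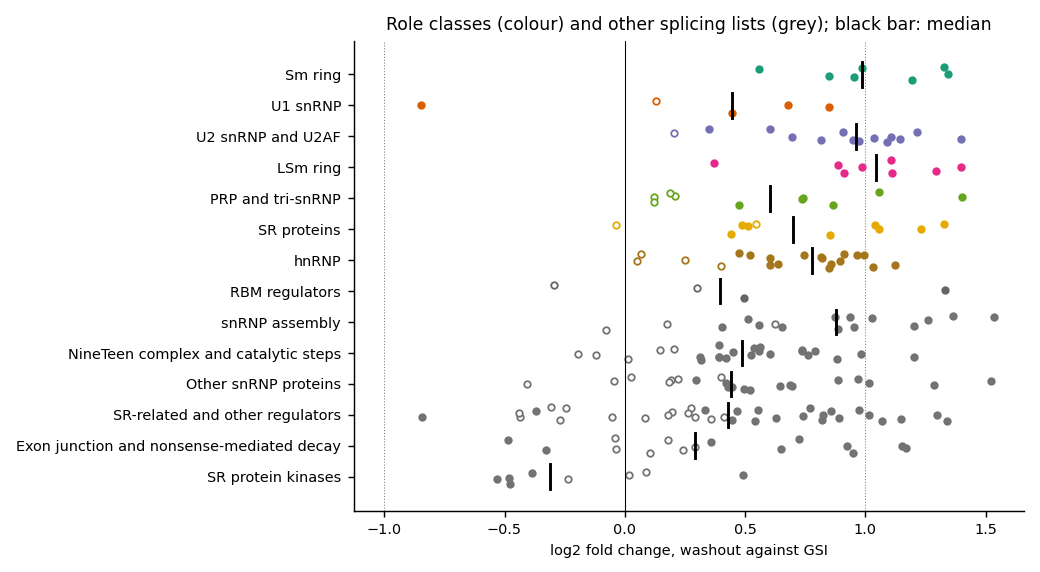
Log2 fold change of each gene tested in the 8 role classes (coloured) and in the 6 lists of other splicing genes (grey), washout against GSI; open points have an adjusted p of 0.05 or more black bars are medians, and the height within a row has no meaning. Medians run from 1.05 for the LSm ring to -0.31 for the SR protein kinases.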

How the data were processed

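The 4 RNA-Seq libraries came from Beko cells, 2 per condition. The authors made stranded libraries from total RNA depleted of ribosomal RNA, trimmed the reads, aligned them to mm9 with HISAT2 (version 2.2.1, per the submitters' processing notes), reporting 1 alignment per read with introns of up to 3000 bases, and counted reads per gene with summarizeOverlaps. The strand setting and overlap mode of the counting are not given in the sources used here. What the authors deposited are raw, unnormalized counts per gene, and 0 columns were left aside. Conditions and replicate numbers were taken from the labels.

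Washout and GSI were compared with edgeR 4.0.16 (R 4.3.3) over all genes that passed filterByExpr, with TMM normalization, the quasi-likelihood test without covariates and Benjamini-Hochberg adjustment, at the thresholds of the study (adjusted p under 0.05, and log2 fold change above 1 or below -1). The scripts were tested on simulated data. Nothing states that replicates came from separate cultures, so p-values measure the spread between these libraries, which may be technical. Replicates of a condition differed by more than sampling noise (chi-square over degrees of freedom of 18.2 in GSI and 28.5 upon washout).

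The genes, role classes and lists were chosen with earlier results of these data known. Genes named were up to 15 past both thresholds by size, those that fell, those nearest the threshold and not tested, and the highest, the lowest and the most abundant per length in each class or list. The others were named after their values were seen. Some genes are counted but not reported here by name. Positions, exon lengths (union of annotated transcripts) and GC content came from GENCODE vM1 on mm9, with 79 of the 80 genes matched by symbol and Lsm8 unmatched. Near-identical copies were matches of minimap2 (2.31-r1302) to at least 80% of the coding sequence at 95% identity. Alternatives were DESeq2 1.42.0, its size factors (RLE) or the total count in edgeR, other count filters, a replicate block, thinning to the smallest library, offsets for GC content and length (mgcv 1.9.3), glmTreat, and leaving out each library, where the lone library is assumed to vary like the others.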

Additional observations from a re-analysis of the deposited data

How the results depend on the processing

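Directions of the genes called were kept under every alternative, whereas counts past both thresholds moved. Higher and lower splicing factor genes past both thresholds were 10 and 1 with the total count alone, where 587 of all genes tested were higher. With the correction for GC content and length 14 splicing factor genes were higher, also with the replicate block, and with glmTreat 6 were. Genes lower at the adjusted p alone were 2 with the total count, with the GC and length correction, with the replicate block and with thinning plus block, and 4 with the correction plus block. Leaving out 1 library gave 1 to 2 lower at the adjusted p alone and 21 to 31 higher past both thresholds. Over all genes tested it gave 2202 to 3334 higher and 2028 to 2815 lower at the adjusted p alone, the lowest of each without GSI replicate 1.

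The median log2 fold change of the splicing factor genes was 0.65 with the total count, 0.68 with the GC and length correction (0.68 with block too), and 0.72 to 0.89 without 1 library. With the total count, class medians were 0.79 (Sm), 0.25 (U1), 0.76 (U2 and U2AF), 0.85 (LSm), 0.41 (PRP), 0.58 (hnRNP) and 0.20 (RBM). With the GC and length correction they were 0.75 (Sm), 0.93 (U2 and U2AF) and 0.79 (LSm), and with the block added 0.75, 0.93, 0.80 and, for hnRNP, 0.63. The U2 and U2AF median, whose replicate SD was 0.012, was also 0.98 with DESeq2, 0.998 without the filter, 0.92 with at least 10 counts in every library and 0.94 with thinning, with or without block, where the Sm median was 0.93 with block. Without 1 library medians ran from 0.95 to 1.08 (Sm), 0.25 to 0.64 (U1), 0.99 to 1.01 (U2 and U2AF), 1.01 to 1.12 (LSm), 0.52 to 0.68 (PRP), 0.54 to 0.95 (SR) and 0.61 to 0.88 (hnRNP). The causes were not tested, apart from the shift of -0.20 that the total count gives all genes.

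Signs turned only for genes that had not passed the test. With the total count these were Hnrnph3 (-0.15), Hnrnpul2 (-0.13), Prpf18 (-0.010), Prpf38b (-0.077), Prpf39 (-0.069) and Prpf4b (-0.078). With the GC and length correction they were Hnrnph3 (-0.20), Prpf38b (-0.088), Prpf39 (-0.013) and Prpf4b (-0.11), and with the block added -0.19, -0.088, -0.014 and -0.11, where Hnrnph3 had an adjusted p of 0.034. Leaving out 1 library gave -0.021 to 0.16 for Hnrnpul2, -0.24 to 0.15 for Srsf5, -0.22 to 0.42 for Prpf39 (-0.0066 without GSI replicate 2), -0.10 to 0.20 for Hnrnph3 and -0.077 to 0.31 for Prpf4b.

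The replicate block was fitted because the conditions share replicate numbers, which nothing ties to a shared culture. Deviations of same-numbered libraries correlated at 0.53 over all genes tested and 0.65 over the splicing factor genes. With the block 69 splicing factor genes were higher and 2 lower at the adjusted p alone, and 22 were higher past both thresholds. The block added calls for 7 genes, Srsf6 (adjusted p = 1.6e-05), Hnrnpa3 (0.0018), Hnrnpul1 (0.017), Prpf18 (0.041), Prpf6 (0.028), Rbm39 (0.0060) and, as lower, Rbm5 (0.0037). Snrpn and Srsf12 had too few counts at this depth to be compared.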
